A study of Mus musculus with 3 samples.

Results

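Goblet cells of the mouse duodenum are described here from droplet single-cell RNA sequencing libraries that were prepared from immune-enriched cells and also held a small number of epithelial cells. The members were selected on measured values: a cell barcode was taken as a goblet cell when it had at least 500 UMIs (unique molecular identifiers, each counting 1 captured RNA molecule), at least 200 genes, at most 15% mitochondrial UMIs, at least 50 UMIs of Zg16, at least 1 UMI each of Muc2 and Agr2, and 0 UMIs of Cd3e. This rule found 120 cells among 33284 barcodes that passed the filter on UMIs, genes and mitochondrial share, and among 40606 barcodes in all. Saline or preformed fibrils (PFF) of recombinant mouse alpha-synuclein, a protein that aggregates in Parkinson's disease, had been injected into the muscle of the duodenal wall of C57B6/J mice, male per the series title, and the tissue was taken 30 days later. Of the 3 libraries 2 are from saline mice. Batch 1 of the labels holds saline 1 together with PFF 1, batch 2 holds saline 2, and the number and age of the mice are not stated. Each suspension was divided, one portion being sorted for CD45 and the other enriched on CD11b beads, and the portions were pooled again before loading. Both steps are aimed at leukocytes, so the epithelial cells here are those that passed the enrichment, and their numbers do not measure the epithelium.

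Goblet cells are secretory cells of the intestinal epithelium that fill their apical cytoplasm with mucin granules. Their lineage is set by the transcription factor Atoh1 and their maturation by Spdef, and they release the gel-forming mucin Muc2 together with partner proteins that make up the mucus over the villi. Folding and glycosylating so large a mucin calls on the endoplasmic reticulum, on the disulfide isomerase Agr2 and on chains of glycosyltransferases.

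The 3 wells that carry the same barcodes with identical counts in both saline files, 13889 barcodes in all, were counted once and are called the shared wells. Saline 1 held 1 goblet cell, saline 2 held 45 and PFF 1 held 36, and shared wells 1, 2 and 3 held 9, 28 and 1. As a share of the barcodes that passed the filter this was 0.294% in PFF 1 (exact binomial 95% interval 0.206% to 0.406%), 0.0183% in saline 1 (0.000464% to 0.102%), 1.04% in saline 2 (0.759% to 1.39%) and 0.338% in the shared wells together (0.240% to 0.464%). PFF 1 therefore lay between the 2 saline libraries, and the saline libraries lay farther from each other than either did from PFF 1. Barcodes of enterocytes, the absorptive cells, defined here by at least 20 UMIs of Fabp1, a UMI of Epcam, under 10 UMIs of Zg16 and none of Cd3e or Ptprc, numbered 41, 17 and 85 in PFF 1, saline 1 and saline 2 and 404 in the shared wells. With 3 libraries, 1 of them PFF, no test of the share was made. The intervals cover counting error only.

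The members were deeply sequenced: the median was 40180.5 UMIs in PFF 1, 32187 in saline 2, 10875 in shared well 1 and 10817 in shared well 2, and the single cells of saline 1 and shared well 3 had 15195 and 19310. Saline 2 and PFF 1 shared 119 cell barcodes, against 19 for saline 1 and PFF 1 and 9 for the 2 saline libraries. Of the 36 PFF 1 members 5 carry a barcode that saline 2 also holds. They have 589 to 630 UMIs, 0.914% to 1.24% of the UMIs of the saline 2 barcode, and a Zg16 share of 14.0% to 29.1%, against 13.3% to 31.5% in those saline 2 barcodes. Of the 5 saline 2 barcodes 4 are members themselves. The other 31 PFF 1 members have at least 2947 UMIs, and the 5 cells hold 0.202% of the PFF 1 goblet UMIs. Leaving them out moved the summed PFF 1 level of Zg16 from 178332 to 178259 CPM. CPM here are the UMIs of a gene for each 1000000 UMIs of the cells in question, and since the assay counts each captured molecule once at its 3' end they are not divided by gene length. Unless said otherwise, levels are given in CPM.

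**Figure D1:**
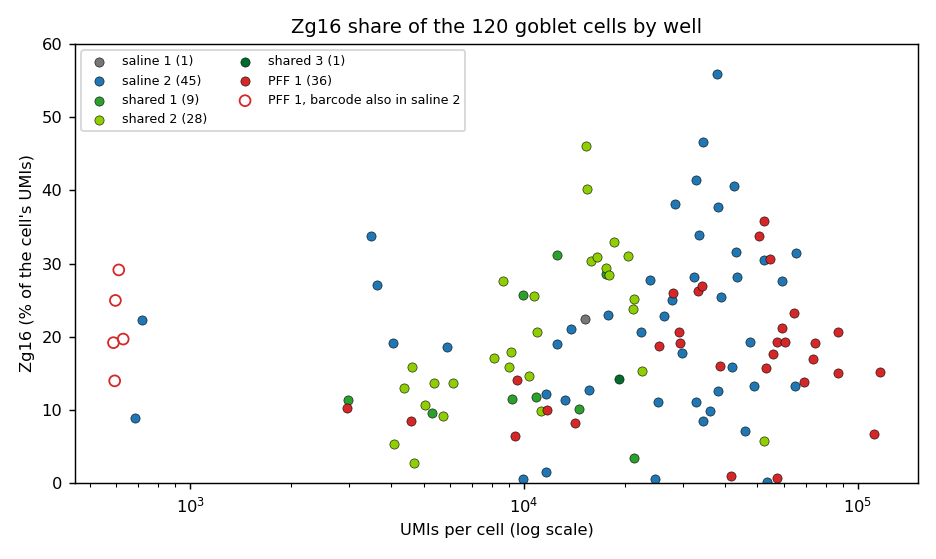
Each point is 1 goblet cell, with its UMIs on a log axis and its Zg16 share of UMIs on a linear axis, coloured by well; numbers in brackets are cells. Open circles mark the 5 PFF 1 members whose barcode saline 2 also holds, at 589 to 630 UMIs, while deep cells such as the saline 2 cell with 53242 UMIs lie near the foot of the plot.

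The rule's threshold on Zg16 fell in a sparse range. The members with the fewest Zg16 UMIs had 53, 61, 83 and 106, and the barcodes just outside that met every other criterion had 48, 46, 28 and 3. Of 142 barcodes with at least 50 Zg16 UMIs, 17 were left out for Cd3e, 9 of them in PFF 1 and 8 in saline 2, and 8 of these 17 had a single Cd3e UMI. A further 4 barcodes met the gene criteria but had over 15% mitochondrial UMIs.

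The label holds against the markers for most members, apart from cells with programs of other lineages that are described below. Zg16, Muc2 and Agr2 chose the cells, but Tff3, which the rule did not use, was found in all 120 at 75156 CPM, against 13.7 in enterocyte barcodes and 10.4 in T cell barcodes, those with UMIs of Cd3d, Cd3e and Ptprc and none of Epcam. Genes of the immune cells for which the libraries were enriched were low. Ptprc, which encodes CD45, gave a UMI in 9 of 36 PFF 1 members, 0 of 45 saline 2 members and 1 of 38 shared-well members. At least 1 UMI of Ptprc, Cd3d, Cd3g, Trac or Cd8a was present in 25 of 36 PFF 1 members, 8 of 45 saline 2 members and 2 of 38 shared-well members, with at most 4 such UMIs in a cell. Gzma, the granzyme of intraepithelial T cells, came to 51.1 CPM in saline 2, 30.2 in the shared wells and 129 in PFF 1, against 15058 in T cell barcodes, and 29.7 in enterocyte barcodes. The 20 T cell markers, 19 of them in the files, summed to 282, 106 and 64.4 CPM in the goblet cells of PFF 1, saline 2 and the shared wells. Whether these UMIs came from free RNA or from cells captured together was not tested, and no doublet caller was run.

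Mucus genes dominated the cells' RNA. Zg16, which encodes a lectin of the mucus that binds Gram-positive bacteria, took 22.8% of all goblet UMIs in saline 2, 20.4% in the shared wells and 17.8% in PFF 1. In CPM it stood at 227556 in saline 2 (exact Poisson 95% interval 226746 to 228368), 203585 in the shared wells (202332 to 204843), 178332 in PFF 1 (177656 to 179009) and 224942 in the 1 cell of saline 1. Tff3, a trefoil peptide that aids epithelial repair, was second, with 74343 in saline 2, 81763 in the shared wells, 73255 in PFF 1 and 117736 in saline 1. Fcgbp, a large mucus protein that is linked with Muc2, followed with 60075, 55227, 66510 and 68509 in the same order. The orders differ from gene to gene: PFF 1 was the lowest of the sources for Zg16 and Tff3 and above saline 2 and the shared wells for Fcgbp. Its place for Zg16 and Tff3 changed without the members that hold a UMI of the lymphocyte genes named above: Zg16 was at 235404 in PFF 1 (11 cells), 233267 in saline 2 (37) and 204165 in the shared wells (36), and Tff3 was at 81443, 75637 and 81166. The PFF 1 members left by that filter had at most 52297 UMIs, against 116540 in the deepest PFF 1 member. The Poisson intervals cover counting error only and are far narrower than the spread between cells.

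Muc2, the gel-forming mucin, stood at 20452 CPM in saline 2, 18625 in the shared wells, 21894 in PFF 1 and 37512 in the saline 1 cell. Clca1, a secreted metalloprotease that processes mucus, was at 22029, 20110, 19530 and 15202. Agr2, the disulfide isomerase needed for Muc2 folding, was lower, at 4525, 3350, 3468 and 7568. These 6 genes together held 40.9% of the goblet UMIs in saline 2, 38.3% in the shared wells and 36.3% in PFF 1. Both enterocyte and T cell barcodes of the same wells contained traces of them, with Zg16 at 24.3 and 18.6 CPM and Muc2 at 1.91 and 2.57. The enterocyte rule itself kept Zg16 under 10 UMIs. T cell barcodes with a Zg16 UMI made up 28.8% in saline 2 and 11.7% in PFF 1, at medians of 8894 and 8230 UMIs. The source of these UMIs was not tested. In saline 1, whose own well gave 1 goblet cell, the share was 1.08%.

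Retnlb, a resistin-like antimicrobial protein that goblet cells make in worm infection, had 0 UMIs in all 120 cells, which allows a share of up to 2.5% of cells with a UMI. Membrane mucins behaved otherwise: Muc13 stood at 2081, 2410 and 2301 CPM in saline 2, the shared wells and PFF 1, against 1243 in enterocyte barcodes, and Muc3, at 214, 225 and 115, was below its enterocyte level of 610.

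The promoter windows of 3 of the 6 leading mucus genes are printed, those that had an entry. The windows run from 250 bases before to 50 bases after the start of the gene, on GRCm38.p6 from RefSeq, and all 3 genes lie on the plus strand. Zg16 (ENSMUSG00000049350, chr7:127050156-127087328), Tff3 (chr17:31125306-31129646) and Clca1 (chr3:145003817-145032776) lie on the minus strand in GENCODE M21 on GRCm38. Of the 6 leading genes, Fcgbp, Muc2 and Agr2 had an entry, and Zg16, Tff3 and Clca1 had none. Capitals mark 2 motifs, which were searched on both strands and do not overlap here. CAGCTG is a form of the E-box bound by basic helix-loop-helix factors, the family of Atoh1. The other motif is the core promoter element TATAAA. Only exact matches were counted, at any distance from the gene start.
Fcgbp (chr7:28070986-28071285): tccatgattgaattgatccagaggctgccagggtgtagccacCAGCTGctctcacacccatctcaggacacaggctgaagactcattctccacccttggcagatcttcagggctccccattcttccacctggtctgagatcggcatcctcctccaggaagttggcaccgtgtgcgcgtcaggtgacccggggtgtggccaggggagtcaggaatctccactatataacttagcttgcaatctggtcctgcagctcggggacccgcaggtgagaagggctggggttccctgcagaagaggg
Muc2 (chr7:141690090-141690389): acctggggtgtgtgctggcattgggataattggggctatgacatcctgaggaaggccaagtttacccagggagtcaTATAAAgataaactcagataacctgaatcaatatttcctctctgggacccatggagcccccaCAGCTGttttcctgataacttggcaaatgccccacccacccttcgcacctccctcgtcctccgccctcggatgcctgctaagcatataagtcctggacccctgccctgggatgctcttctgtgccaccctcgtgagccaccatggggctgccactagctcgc
Agr2 (chr12:35992675-35992974): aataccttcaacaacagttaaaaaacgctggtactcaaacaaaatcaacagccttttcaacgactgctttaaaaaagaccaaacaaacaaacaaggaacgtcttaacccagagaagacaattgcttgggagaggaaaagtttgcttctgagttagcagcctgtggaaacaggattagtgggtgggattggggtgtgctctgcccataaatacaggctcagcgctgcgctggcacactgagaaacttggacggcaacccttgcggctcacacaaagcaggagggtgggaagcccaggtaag
CAGCTG occurred once in the Fcgbp window, once in that of Muc2 and not in that of Agr2, and TATAAA occurred in the Muc2 window alone, starting at base 77. Of 32851 windows of the same length, 16.3% hold CAGCTG and 13.6% hold TATAAA. A match describes letters in the window and is not evidence of binding.

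Within the members the leading genes varied widely from cell to cell. Among the 103 cells with at least 5000 UMIs, the Zg16 share ran from 0.199% to 55.9% of the UMIs, with a median of 19.1%. The Tff3 share had a median of 8.18% and ran from 0.0905% to 13.2%, and the Muc2 share had a median of 2.09%, from 0.0638% to 5.16%. Medians by source were close: for Zg16 19.96% in saline 2 (40 cells), 18.0% in the shared wells (33) and 18.7% in PFF 1 (29). Across cells, the Zg16 share and the share of Tff3 among the other UMIs rose together, with Spearman's rho of 0.87 in saline 2, 0.82 in the shared wells and 0.87 in PFF 1. For Muc2 rho was 0.43, 0.34 and 0.49, and for Fcgbp 0.33, 0.23 and 0.24. The mitochondrial share ran against Zg16, at -0.39, -0.44 and -0.35. These correlations describe cells of the same libraries that share depth and a common denominator.

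Transcription factors of the secretory lineage were set against the enterocyte barcodes of the same wells. Because the rule chose cells by genes of the same barcodes, these differences are descriptions and were not tested. Of 7802 genes with at least 20 goblet UMIs, 9.86% were at least 2-fold higher in goblet cells than in enterocyte barcodes in each of saline 2, the shared wells and PFF 1, and 16.8% were at least 2-fold lower in each, with a gene at 0 UMIs taken as 1 UMI. Of 16 measured transcription factors 10 were higher and 2, Cdx2 and Gata4, were lower. Atoh1, the switch to the secretory fate, stood at 297 CPM in saline 2, 235 in the shared wells and 265 in PFF 1, with 0 UMIs in enterocyte barcodes, so that it was at least 1283-fold higher, taking 3 counts over all enterocyte barcodes as the floor. Spdef, which drives goblet maturation, was at 135, 163 and 150, Foxa3 at 206, 276 and 217, and Klf4, a factor of terminal differentiation, at 610, 690 and 736. Creb3l1, which promotes secretory capacity, was at 114, 127 and 146 and 55.8-fold above enterocyte barcodes pooled. In each of these genes the 3 sources lay close together.

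Cells were also thinned to 5000 UMIs each, to compare shares of cells at one depth, which left out 5 of 45 saline 2, 5 of 38 shared-well and 7 of 36 PFF 1 members. Atoh1 then had a UMI in 60% of the saline 2, 57.6% of the shared-well and 75.9% of the PFF 1 goblet cells, and in no enterocyte or T cell barcode thinned alike. Spdef was found in 60%, 63.6% and 48.3%. Klf4 was found in 95%, 93.9% and 89.7% of goblet cells, and in 15.1%, 50.3% and 16.2% of enterocyte barcodes. Without thinning, Atoh1 had a UMI in 100 of the 120 cells and Klf4 in 116.

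**Figure D2:**
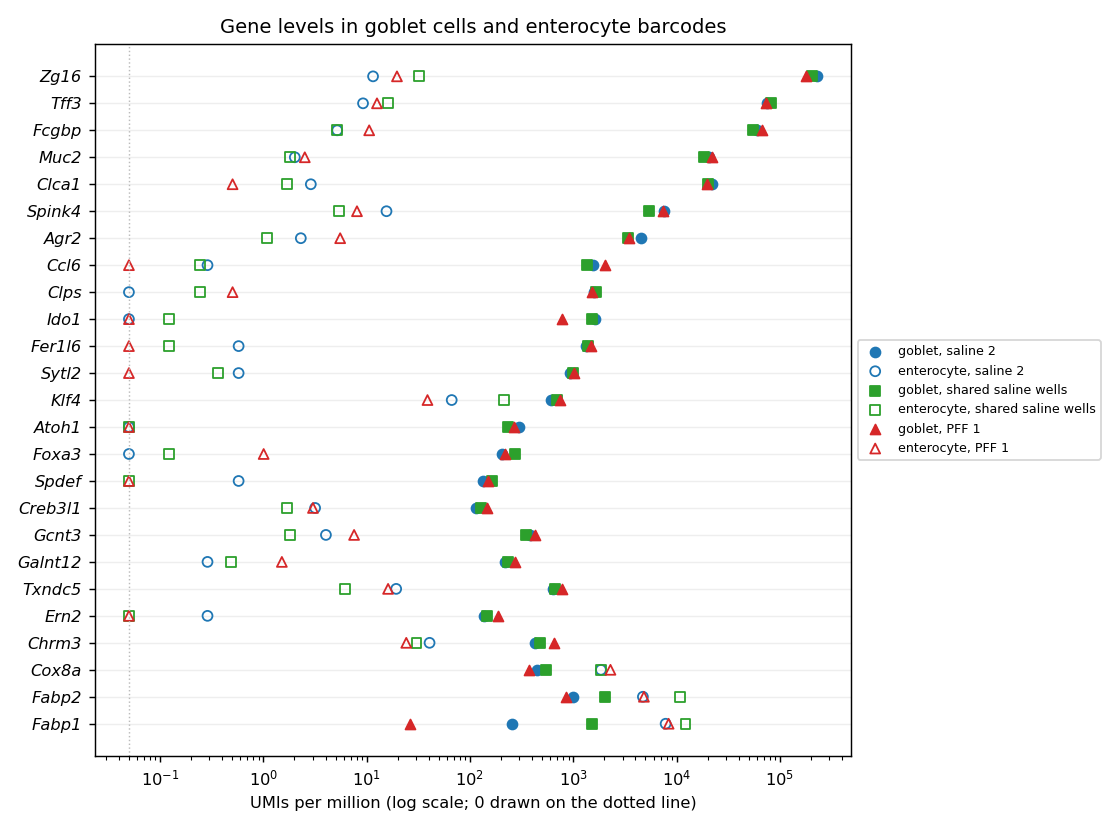
Levels of 25 genes in CPM on a log axis, summed over goblet cells (filled) and enterocyte barcodes (open) of saline 2, the shared saline wells and PFF 1; levels of 0 are drawn on the dotted line. Filled markers lie right of the open ones for the secretory genes and left of them for Cox8a, Fabp2 and Fabp1, and Fabp1 differs between the goblet sources, from 26.02 in PFF 1 to 1529 in the shared wells. Fabp1 and Zg16 were part of the enterocyte rule, so their sides were largely set in advance.

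Of the granule and ion transport genes 29 of 36 measured members were at least 2-fold higher than in enterocyte barcodes in each source, and 3 were lower. S100a6, a calcium-binding protein, stood at 3787 CPM in saline 2, 4298 in the shared wells and 2695 in PFF 1, against 6.44 in enterocyte barcodes. Sytl2, a Rab27 effector in granule docking, was at 931, 992 and 1016, and Rab27b, its GTPase partner, at 591, 718 and 673. Slc12a8, a transporter of the cation-chloride family, was at 601, 656 and 849. Capn9, a digestive-tract calpain, had no UMI in enterocyte barcodes and was at least 1275-fold higher by the same reckoning. Slc12a2, the sodium-potassium-chloride cotransporter, was at 69.9, 42.3 and 74.1.

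The glycosylation genes were split. Of 38 measured genes on the mucin glycosylation list, 17 were higher in each source and 2 were lower, St3gal4 among them. Galnt12, which starts O-glycan chains, was 432-fold above enterocyte barcodes pooled, at 220, 231 and 271 CPM in saline 2, the shared wells and PFF 1. Gcnt3, which makes the core branches of mucin glycans, was at 379, 346 and 430, 128-fold above. C1galt1, which extends the first sugar, was at 173, 207 and 192. The sialyltransferase St3gal4 was at 253, 427 and 162, against 1576 in enterocyte barcodes.

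The general folding machinery of the endoplasmic reticulum did not stand apart as a group. Of 50 measured genes 8 were higher in each source and 1, the disulfide isomerase subunit P4hb, was lower. The median over the list of goblet over enterocyte log2 level (each level plus 10) was 0.28, against -0.19 over all genes. Txndc5, a thioredoxin-domain isomerase, was at 643, 664 and 772 CPM in saline 2, the shared wells and PFF 1, 65.3-fold above enterocyte barcodes. Ern2, the gut form of the stress sensor IRE1, was at 136, 145 and 188, against 1 UMI in all enterocyte barcodes. Hspa5, the chaperone BiP, was at 506, 437 and 551, 1.47-fold above.

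**Figure D3:**
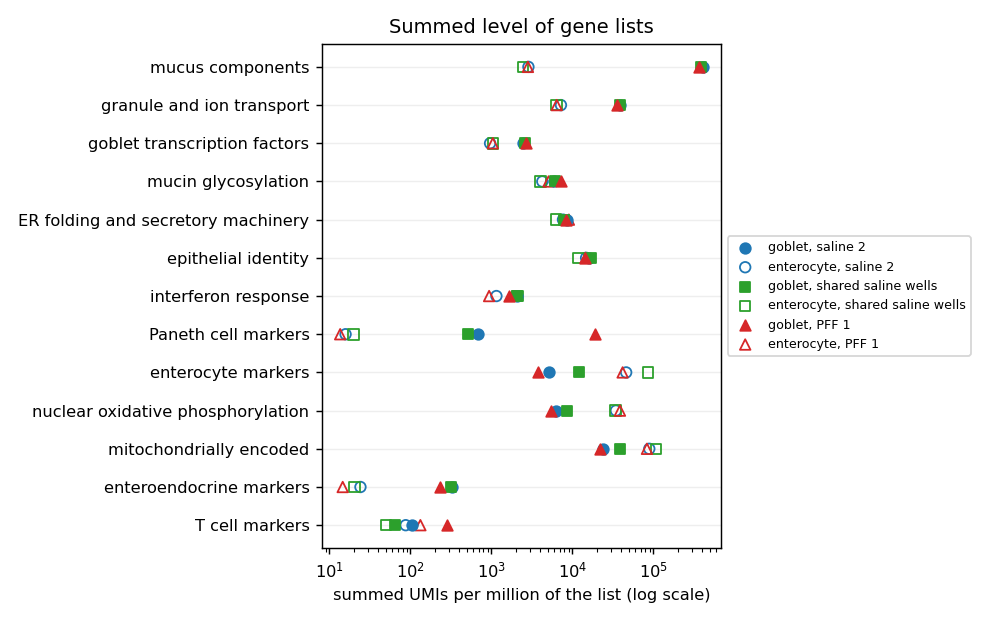
Summed level of 13 gene lists in CPM on a log axis, in goblet cells (filled) and enterocyte barcodes (open) of saline 2, the shared saline wells and PFF 1. The goblet sources lie close together for most lists, and the Paneth cell list stands at 19123 in PFF 1 against 686 and 513 in saline 2 and the shared wells.

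Mitochondrial genes were low in goblet cells. Of 36 nuclear genes of oxidative phosphorylation 35 were at least 2-fold lower than in enterocyte barcodes in each source, and of 13 mitochondrially encoded genes 12 were. Cox8a, a subunit of cytochrome oxidase, stood at 445 CPM in saline 2, 549 in the shared wells and 376 in PFF 1, against 1887 in enterocyte barcodes. The mitochondrial genes held 2.42%, 3.90% and 2.19% of the goblet UMIs and 8.92%, 10.8% and 8.35% of the enterocyte UMIs. The 6 mucus genes take 36.3% to 40.9% of the goblet UMIs, and a gene's CPM are relative to a total that includes them.

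Beyond the mucus genes, the next most abundant and most distinctive genes were the following. Spink4, a secreted peptide of goblet cells, stood at 7489 CPM in saline 2, 5438 in the shared wells and 7384 in PFF 1, 875-fold above enterocyte barcodes. Lypd8, which keeps flagellated bacteria from the epithelium, was at 6009, 5537 and 4552, 2.79-fold above. Clps, colipase, was at 1601, 1674 and 1513, against 4 UMIs in all enterocyte barcodes. Fer1l6, a ferlin of the membrane fusion family, was at 1322, 1400 and 1481, Ano7, an anoctamin, at 466, 511 and 619, and Hepacam2 at 800, 779 and 1149. Enteroendocrine barcodes also held Hepacam2, at 848 CPM. The nuclear transcript Malat1 did not stand apart, at 7803, 10770 and 7288, against 8701 in enterocyte barcodes. Gm42418, whose locus overlaps ribosomal RNA sequence and whose count is therefore uncertain, was at 52818 in saline 2 and 67658 in PFF 1 but 10253 in the shared wells, and a single PFF 1 cell held 29.1% of its UMIs.

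Signals and receptors formed a smaller group. Ccl6, a chemokine known in mice, stood at 1545 CPM in saline 2, 1366 in the shared wells and 2020 in PFF 1, with 3 UMIs in all enterocyte barcodes. Chrm3, the muscarinic receptor through which acetylcholine triggers mucin release, was at 426, 475 and 656, and 17.1-fold above enterocyte barcodes. Chrm1 had 0 UMIs in enterocyte barcodes and stood at 25.6, 20.1 and 29.4. Egfr, the receptor known to inhibit goblet antigen passages, was at 438, 443 and 282, and its ligand Areg, amphiregulin, at 103, 191 and 57.4. Ido1, which degrades tryptophan, was at 1615, 1509 and 771, against 1 UMI in all enterocyte barcodes. Il33, an alarm cytokine, was at 75.9, 56.3 and 31.4. In Egfr, Areg, Ido1 and Il33 PFF 1 was the lowest of the 3 sources, and in Ccl6 and Chrm3 it was the highest.

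A few members carried programs of other epithelial lineages. A pair of PFF 1 cells, with 41788 and 57321 UMIs, had 22.4% to 28.6% of their UMIs in Paneth cell markers, and 11.2% to 13.2% in mucus components. Paneth cells are the crypt cells that secrete alpha-defensins and lysozyme. These cells held 4115 and 4318 UMIs of Defa30 and 5945 and 6496 of Defa24, alpha-defensins, and 676 and 795 of Lyz1, the Paneth lysozyme. Their Mmp7, the protease that activates alpha-defensins, came to 108 and 111 UMIs. Their Zg16 came to 408 and 405 UMIs and their Muc2 to 689 and 865. Other counts were also close, with Tff3 at 1766 and 1759 and Spink4 at 624 and 618. Fcgbp, at 2038 and 2540, and Agr2, at 39 and 64, differed more. The pair held 99.95% of all Defa30 UMIs of the members, 84.7% of the Lyz1 and 73.4% of the Defa24. Alpha-defensin genes are near-identical copies, so how their UMIs were divided among Defa24, Defa30, Defa17 and the rest is uncertain.

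Lower amounts of Defa24 were more widely spread. It had a UMI in 33 members, and the next highest cell, also of PFF 1, held 2777 UMIs of it, with 33 of Lyz1 and 0 of Defa30, among 74536 UMIs. In saline 2 the highest cell had 288 and in the shared wells 73. After thinning to 5000 UMIs, Defa24 was found in 22.5% of saline 2, 21.2% of shared-well and 27.6% of PFF 1 goblet cells, in no enterocyte barcode and in at most 0.2% of T cell barcodes.

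Another 3 members were picked for at least 90 UMIs of Fabp1. A cell of shared well 2 had 628 UMIs of Fabp1, the liver fatty acid-binding protein, a cell of saline 2 had 301 and a cell of shared well 1 had 98. Enterocyte markers made up 5.99%, 7.08% and 1.96% of their UMIs, against a median of 0.36% over the members outside these 6 cells. Other members lay in the same range without much Fabp1: 2 PFF 1 cells, with 3 and 2 UMIs of it, had 5.51% and 4.54% of their UMIs in enterocyte markers, and a saline 2 cell with 2 had 2.44%. Finally 1 saline 2 cell, with 53242 UMIs and 106 of Zg16, had 21 of the 26 UMIs of Mki67, a marker of dividing cells, in all members and 53 UMIs of the chemokine Ccl9. These 6 cells, 2 in PFF 1, 2 in saline 2 and 2 in the shared wells, were picked after their values were seen. Whether any of them are 2 cells in 1 droplet, or whether the alpha-defensin pair is 1 cell under 2 barcodes, was not tested.

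**Figure D4:**
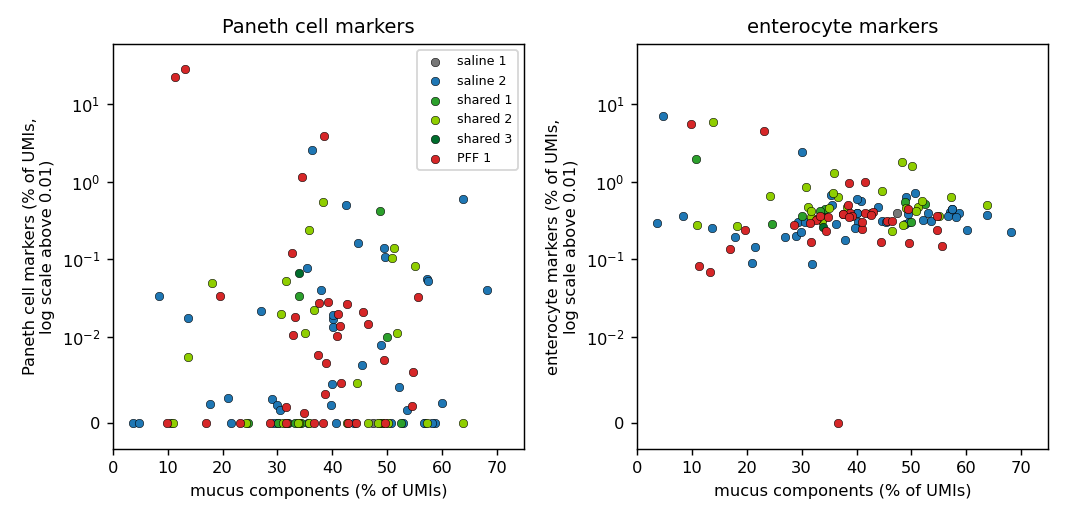
Each point is 1 goblet cell, with the share of UMIs in mucus components on the horizontal axis and in Paneth cell markers (left) or enterocyte markers (right) on a vertical axis that is logarithmic above 0.01%, coloured by well. On the left, 2 PFF 1 cells lie at 22.4% and 28.6%, and on the right cells of saline 2, shared well 2 and PFF 1 reach 7.08%, 5.99% and 5.51%.

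PFF was to be compared with saline only if every library held at least 5 goblet cells, and saline 1 held 1, so the planned test was not made. A test was added after the cell numbers had been seen: UMIs summed over the goblet cells of PFF 1 were compared with those of saline 2 and of the pooled shared wells. The fit has 1 residual degree of freedom, takes its spread from the saline sources alone and assumes that PFF 1 varies like them, and the shared wells cannot be assigned to saline 1 or saline 2 or to a batch. Since PFF 1 and saline 2 belong to different batches, treatment and batch cannot be told apart. Nothing says that the libraries came from separate animals, so the p-values measure only the spread between these sources.

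Of 8068 genes tested with edgeR's quasi-likelihood test, 10 were called higher in PFF 1 (0.124%) and 1 lower (0.0124%) at a Benjamini-Hochberg adjusted p under 0.05, and 486 had an unadjusted p under 0.05. The 10 genes were Defa30, Gm14851, AY761184, Lyz1, Defa17, Mmp7, Defa24, Ang4, Itln1 and Gm7861, and 8 of the 9 Paneth cell markers tested are among them. Without the alpha-defensin pair of PFF 1 cells 0 genes were called in either direction and 449 had an unadjusted p under 0.05. DESeq2 on all members called 10 higher and 5 lower. Defa30 had 0 UMIs in saline 2 and in the shared wells and 8437 in PFF 1, at least 3429-fold higher when 3 counts over both saline sources are allowed. Lyz1 came to 70.7 CPM in saline 2, 86.5 in the shared wells and 1067 in PFF 1 (log2 fold change 3.76 ± 0.26, SE, adjusted p = 0.0063 with edgeR), and without the 6 cells of other lineages PFF 1 was at 91.5 (log2 0.18, adjusted p = 0.97 with edgeR). Itln1, an intelectin that binds microbial glycans, turned from 2.48 to -1.57 on the log2 scale when the 2 cells were left out. Without the 6 cells it was called lower (-1.81). It had UMIs in 18 members, and the highest cells of the saline sources held 43 in saline 2 and 19 in shared well 2.

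Reg1, a secreted lectin of the Reg family made by enterocytes here, was the gene called lower: 26.02 CPM in PFF 1, 574 in saline 2 and 970 in the shared wells, with 0 UMIs in the saline 1 cell (log2 fold change -4.87 ± 0.44, SE, adjusted p = 0.017 with edgeR). The 3 members picked for Fabp1 held 94.5% of its UMIs and are not PFF 1 cells, while 18 of the 39 Reg1 UMIs of PFF 1 lay in the cell with 4.54% enterocyte markers. Without the 6 cells its log2 value was 0.20. Reg1 stood at 11083 CPM in enterocyte barcodes.

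The number of calls depended strongly on how the members were chosen. With a Zg16 minimum of 20 UMIs the members per source changed from 45, 38 and 36 to 47, 39 and 36, and the calls rose to 55 higher and 123 lower. At most 10% mitochondrial UMIs gave 28 and 75, and no limit on them gave 7 and 0. Over the 17 settings with a test, the sum of calls ran from 0 to 885, the highest with the saline files as deposited, where both saline sums hold the same 38 cells. The settings in which the 11 genes were all called again kept either or both of the alpha-defensin pair among the members. Such repeats were largely set in advance, as that pair held most UMIs of the genes called higher.

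**Figure D5:**
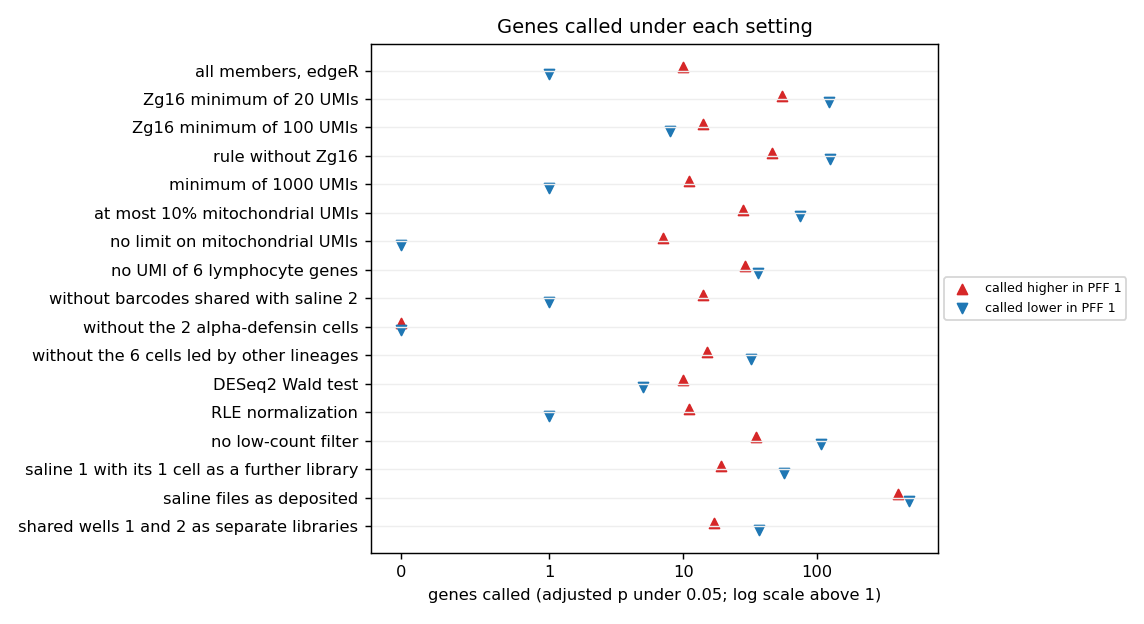
Genes called higher (upward triangles) and lower (downward triangles) in PFF 1 at an adjusted p under 0.05, on an axis that is logarithmic above 1, under each of 17 settings. The counts range from 0 without the 2 alpha-defensin cells to 402 higher and 483 lower with the saline files as deposited.

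Of the leading mucus genes that the rule did not use, PFF 1 differed from saline on the log2 scale by a fitted -0.10 ± 0.31 for Tff3, 0.19 ± 0.32 for Fcgbp and -0.13 ± 0.32 for Clca1 (SE, 3 sources), with adjusted p of 0.98, 0.95 and 0.97 in edgeR's quasi-likelihood test. Zg16 and Muc2 helped to choose the cells, so their fitted values of -0.29 ± 0.34 and 0.15 ± 0.32 are descriptions. By lists, 4 of 11 tested mucus genes had a fitted value above 0 and 7 below (median log2 -0.13), 9 of 16 transcription factors were above 0 (median 0.01), and 27 of 38 glycosylation genes were above 0 (median 0.24), where all 8068 genes had a median of -0.01. Apart from Itln1 among the mucus components, none of these list members was called. Granule genes had 21 of 38 above 0 and folding genes 26 of 50.

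Interferon response genes had fitted values below 0, and none was called with all members. All 21 tested genes had such a value, with a median log2 fold change of -1.01, against 4111 of all 8068 genes. When the 6 cells of other lineages were left out, 21 of 21 were below 0, again with a median of -1.01. Rsad2 and Isg15 then fitted at -3.55 and -2.72, and both were called lower, as was Ifit1bl1. Those 6 cells were picked after their values were seen. Over the 11 alternatives for which list medians were computed the median ran from -1.04 to -0.66. Rsad2, the antiviral protein viperin, came to 37.6 CPM in saline 2, 34.2 in the shared wells and 3.34 in PFF 1, with 0 UMIs in the saline 1 cell (log2 fold change -3.43 ± 0.53, SE, adjusted p = 0.20 with edgeR). It had UMIs in 17 cells, and 34.7% of them lay in 1 saline 2 cell. Isg15, a ubiquitin-like interferon-induced protein, came to 43.6, 30.2 and 6.01 in the same order (log2 -2.68 ± 0.53, adjusted p = 0.50 with edgeR), and 46.3% of its UMIs lay in 1 saline 2 cell. Ifi27l2b, the most abundant of the list, was at 1469, 1346 and 1311 (log2 -0.12 ± 0.29, adjusted p = 0.97 with edgeR). Per cell the list's share of UMIs overlapped between the sources: the median was 0.134% in PFF 1, 0.148% in saline 2 and 0.144% in the shared wells, while the highest cells reached 0.325%, 0.677% and 0.870%.

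Genes of oxidative phosphorylation were also below 0 in all 36 tested members, with a median of -0.45, but without the 6 cells 21 of 36 were below and the median was -0.02. Enterocyte markers were below 0 in 26 of 28, with a median of -1.70, and -0.69 without the 6 cells. Their summed level was 3774 CPM in PFF 1, 5100 in saline 2 and 12219 in the shared wells. T cell markers were above 0 in 5 of 5 tested, with a median of 1.52, beside the UMIs of lymphocyte genes given above. No member of these 3 lists was called.

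By the rule for single genes that asks for PFF 1 to lie on the same side of saline 1, saline 2 and the shared wells, and for at least 50 CPM in PFF 1 or in the saline sources, 11 of the 12 genes with the lowest fitted values were Ddx60, Areg, Cox16, Cldn4, St3gal4, Ido1, Cystm1, Cgn, Marc2, Cyc1 and Cox7b, with log2 values from -1.40 for Ddx60 to -0.89 for Cox7b and adjusted p from 0.67 to 0.80 in edgeR's quasi-likelihood test. Ddx60, an RNA helicase of antiviral defence, came to 239 CPM in saline 2, 378 in the shared wells, 132 in the saline 1 cell and 115 in PFF 1. Ido1 fitted at -1.04 ± 0.29, with UMIs in 94 of the 120 cells. For Cox16, Cox7b, Cyc1, Cystm1, Marc2 and St3gal4 the cell with the most UMIs was the shared well 2 cell with 628 of Fabp1, which held from 6.38% of the Cystm1 to 13.0% of the Cox7b UMIs. Without the 6 cells these genes fitted between -0.81 for Cystm1 and -0.02 for Cox7b. Ddx60, Areg, Cldn4 and Ido1 were then at -1.57, -1.44, -1.22 and -1.17, and all of these were called lower in that setting. The 6 cells were picked after their values were seen. Some of them lie in saline 2 and the shared wells, the sources from which the fit takes its spread. Hspa1b, a heat shock protein, and Kcnma1, a potassium channel, were on the high side with log2 values of 3.42 and 2.59, and the alpha-defensin pair held 54.4% and 76.3% of their UMIs. Without those 2 cells Kcnma1 fitted at -0.70.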

How the data were processed

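Droplet libraries (10x 3' v3 chemistry) of 2 saline samples and 1 PFF sample, as labelled, were used. The authors deposited unnormalized UMI counts of 32285 genes by barcode, made with Cell Ranger 7.0.0 per the file headers, on mm10 per the submitters' processing notes. The annotation release, the cell calling, the joining of wells and the number of mice are not stated in any label or header used here. Barcodes of the wells that both saline files hold were counted once. Counts were summed over goblet cells per source and divided by all their UMIs; levels carry exact Poisson and shares exact binomial (Clopper-Pearson) 95% intervals, which cover counting error only. Thinning drew 5000 UMIs per cell with a fixed seed.

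The planned test needed 5 goblet cells in each library and was not made. The added fit used edgeR 4.0.16 in R 4.3.3 (TMM, filterByExpr, quasi-likelihood F test, 2-sided, Benjamini-Hochberg adjustment), with the SE taken as the absolute log2 fold change over the square root of F; DESeq2 1.42.0 was an alternative. The procedure was tested on simulated counts. Other steps used Python 3.11.15, numpy 2.4.6, pandas 2.3.3 and scipy 1.17.1. Genes were named by level (25 highest), by ratio to enterocyte barcodes (25 highest), by fitted fold change (12 on each side, called genes first) or as leading members of 27 lists, of whose genes 13 were not in the files; further genes were chosen after their values were seen, and 1 gene that the rules select is not reported here. The members, lists and rules were chosen with earlier results of these data known.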

Additional observations from a re-analysis of the deposited data

How the results depend on the processing

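The number of goblet cells over all wells ran from 85 to 124 across the alternatives. With the saline files as deposited, the 2 saline libraries held 39 and 83 goblet cells, and without cells holding any UMI of 6 lymphocyte genes PFF 1 held 11. The levels of the 6 leading mucus genes moved by less than the spread between sources under the 5 alternatives run on them: the rule without Zg16, a denominator without mitochondrial genes and, chosen after seeing the data, leaving out the barcodes shared with saline 2, the 6 cells of other lineages or the cells with a lymphocyte UMI. Within PFF 1 the last moved Zg16 from 178332 to 235404 CPM, and the members left there had at most 52297 UMIs. The count of genes called in PFF 1 against saline, 10 higher and 1 lower, depended on the setting, and the cause was not tested. It was 55 higher and 123 lower with a Zg16 minimum of 20 UMIs, 14 and 8 with 100 UMIs, 46 and 125 with the rule without Zg16, 28 and 75 with at most 10% mitochondrial UMIs, 7 and 0 with no limit on them, and 29 and 36 without lymphocyte UMIs. It was 35 and 107 with no low-count filter, 10 and 5 with DESeq2, 19 and 57 with the saline 1 cell as a further library, and 402 and 483 with the saline files as deposited. Among alternatives chosen after seeing the data, it was 0 and 0 without the 2 alpha-defensin cells, 15 and 32 without the 6 cells of other lineages, and 17 and 37 with shared wells 1 and 2 apart.

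Of 254 values of 24 named genes under 11 settings, 249 kept their direction and 5 were reversed. These genes were named for their calls or fitted fold changes in the same data. The settings share most cells, so kept directions were largely set in advance. Calls among these values were both gained and lost between settings. A gene that dropped out of the test in a setting gave no value there. Without the 2 alpha-defensin cells the log2 fold changes of Itln1 and Kcnma1 turned to -1.57 and -0.70. Without the 6 cells Itln1 was at -1.81, Kcnma1 at -0.84 and Reg1 at 0.20. Leaving out saline replicate 1 gave no value because saline 1 takes no part in the fit, and leaving out saline replicate 2 or the shared wells allowed no test, only values. No paired analysis was possible because the groups share fewer than 2 replicate numbers. The 120 cells, 1 PFF library and 1 residual degree of freedom limit every comparison of PFF with saline.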
